A study of Rattus norvegicus with 27 samples.

Results

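The transcripts described here are those of 10 immediate early genes, Fos, Fosb, Junb, Egr1, Egr2, Egr4, Arc, Npas4, Nr4a1 and Dusp1, in the medial prefrontal cortex (mPFC) of rats at rest. They were chosen by their rat gene symbols, and each had 1 row among the 36865 rows of the count table. Their NCBI gene identifiers there are 314322 (Fos), 100360880 (Fosb), 24517 (Junb), 24330 (Egr1), 114090 (Egr2), 25129 (Egr4), 54323 (Arc), 266734 (Npas4), 79240 (Nr4a1) and 114856 (Dusp1). RNA was sequenced from 27 male Wistar rats, 1 library per rat, which formed a single group without a stimulated or untreated group beside it. The rats had been through a series of repeated anxiety tests (the light-dark box, the open field and the elevated plus-maze) and were then left undisturbed for 2 weeks, and the bilateral mPFC, taking in infralimbic, prelimbic and anterior cingulate cortex, was dissected after decapitation straight from the home cage in the early active phase. They were picked as every second animal on a ranking by composite anxiety score, which was not used here. The sample labels also name acoustic startle and fear conditioning, and give the treatment as learned helplessness. The labels and the methods further differ in the bregma levels of the section and in the library kit (TruSeq against NEBNext), so the handling of the rats, the dissection and the library preparation are not described in the same way by all sources.

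Immediate early genes are transcribed within minutes of a stimulus without the need for new protein, mainly through the transcription factors CREB and SRF, which are already bound near these genes and are switched on by calcium and kinase signals. In cortex they are used as a record of recent neuronal firing, since their RNA decays quickly. Most of the 10 encode transcription factors: Fos, Fosb and Junb are subunits of the AP-1 dimer, Egr1, Egr2 and Egr4 are zinc finger factors, Npas4 is a factor induced by calcium entry in neurons, and Nr4a1 is an orphan nuclear receptor. Arc encodes a cytoskeleton-associated protein that acts at synapses on AMPA receptor trafficking. Dusp1 encodes a phosphatase that switches off MAP kinases and so closes the loop on the signal that induces it.

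The sequences before the transcription starts of these genes hold the sites through which they are induced, and RefSeq (assembly GRCr8) gave such a sequence for 8 of the 10 genes, matched by symbol. The RefSeq sequences give 1 start per gene. It is the outer end of the annotated gene for Junb, Egr1, Egr4 and Dusp1, but lies inside the gene for the other 4, by 322 bases for Fosb, 760 for Egr2, 11936 for Npas4 and 12985 for Nr4a1, and the offsets depend on it. The 250 bases before that start were searched on both strands for the CRE (TGACGTCA), the CRE core (TGACG, which a full CRE also holds), the AP-1 site (TGACTCA or TGAGTCA), the Egr site (GCGGGGGCG), the NBRE of Nr4a receptors (AAAGGTCA) and the CArG box of SRF, and on the sense strand for a TATA box (TATAAA or TATATA). The CRE core was in 6 of the 8 (Junb, Egr1, Egr2, Egr4, Nr4a1 and Dusp1), against 19% of all 27457 sequences of that length. The CArG box was in Egr1 and Egr2, against 1.5% of all, the full CRE in Dusp1 alone (1.7% of all), the Egr site in Nr4a1 alone (2.49% of all), and the TATA box letters in 4 (12.2% of all), at -30 in Egr4, -49 in Junb, -149 in Npas4 and -172 in Fosb. The AP-1 site (3.98% of all) and the NBRE (1.11% of all) were in none of the 8. A match is a description of the letters and not a measured binding site.

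Egr1 and Egr2 are shown first because they each held a CArG box and a CRE core at the same offsets. They were also the pair whose levels were least alike over all rats (Spearman's rho 0.124). Their rho was 0.241 in the rats numbered up to 31 and 0.909 in those numbered from 32. The 30 bases from position -87 to -58 before the start are given, for Egr1 on the plus strand of chromosome 18 (chr18:26736991-26737020) and for Egr2 on the minus strand of chromosome 20 (chr20:21054499-21054528), with the CArG box and the CRE core in capitals. The CArG box began at -83 and the CRE core at -66 in both, and 22 of the 30 bases were identical. Egr1 also held a further CArG box at -105 and a further CRE core at -135, outside this stretch, which Egr2 did not.
Egr1: cttcCCATATATGGccatgtaCGTCAcggc
Egr2: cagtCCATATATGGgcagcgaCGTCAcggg

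Dusp1, Junb and Egr4 are shown in full because of their relations over all rats. The levels of Dusp1 and Junb were there among the most alike of the 10, while Egr4 stood with Egr1. In the rats numbered up to 31, Spearman's rho of Egr4 was 0.715 with Egr1, 0.759 with Junb and 0.756 with Dusp1. In those numbered from 32 it was 0.873, 0.745 and 0.582. The capitals mark the CRE or its core in all 3 and the TATA box in Junb and Egr4. The regions are chr10:17184603-17184852 (plus strand) for Dusp1, chr19:40080876-40081125 (plus strand) for Junb and chr4:119607818-119608067 (minus strand) for Egr4.
Dusp1: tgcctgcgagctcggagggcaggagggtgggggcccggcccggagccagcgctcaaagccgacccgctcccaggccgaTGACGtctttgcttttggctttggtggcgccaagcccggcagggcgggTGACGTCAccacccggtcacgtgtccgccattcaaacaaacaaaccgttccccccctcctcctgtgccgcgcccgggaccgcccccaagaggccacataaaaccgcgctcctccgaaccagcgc
Junb: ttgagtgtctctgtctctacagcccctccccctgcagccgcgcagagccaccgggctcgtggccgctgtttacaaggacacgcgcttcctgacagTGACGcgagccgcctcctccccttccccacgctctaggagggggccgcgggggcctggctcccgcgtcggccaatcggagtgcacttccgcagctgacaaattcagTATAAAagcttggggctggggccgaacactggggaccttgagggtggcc
Egr4: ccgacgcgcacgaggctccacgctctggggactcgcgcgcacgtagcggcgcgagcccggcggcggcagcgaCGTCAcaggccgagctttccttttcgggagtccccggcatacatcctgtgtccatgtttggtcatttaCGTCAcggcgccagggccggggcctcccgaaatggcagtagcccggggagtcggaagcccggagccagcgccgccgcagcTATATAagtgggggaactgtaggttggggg

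Libraries held between 4907255 and 12771309 counted reads. The 16 libraries numbered up to 31 in their names held at most 8568317, and the 11 numbered from 32 at least 9404220, so the libraries are also described within these 2 sets, called depth blocks below. The study's methods say that the male Wistar rats used for trait anxiety and its neural correlates came in 2 cohorts. Which rat was in which, and whether that or anything else set the blocks apart, is not given in the sources used here. Rats 12 and 20 stood apart in 18S ribosomal RNA, with normalized counts of 19987 and 16899 against a median of 1621, and the calls of the models and of the pairs of members are also given without them. Markers of excitatory neurons were abundant in every library (summed normalized count of 8 genes from 32849 to 47850, led by Nrgn). The row of the interneuron marker Sst was at 0 throughout, which does not show that its transcript was absent. Counts below are divided by the size factor of each library (normalized counts). Levels are not compared between genes, since transcript lengths were not used.

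All 10 genes were measured in all 27 rats, with no deposited count below 50, and varied between rats far more than most genes did. The median coefficient of variation (CV, the SD over the mean) was 30.1% over the 10, against 13.2% over the 11730 genes whose mean count reached 10. The spread was beyond that of counting for each of the 10 (chi-square test of dispersion, with Poisson counting as the reference, adjusted over all genes), but so it was for 89.8% of all genes tested. Counting accounted for 0.557% of the variance of Arc and for 6.91% of that of Fosb, the lowest and the highest of the 10, and every member had a CV above that of at least 79.6% of genes. With bulk tissue, fewer active cells and less RNA per cell cannot be told apart.

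Npas4 varied most. Its normalized count was lowest in rat 3 at 76.5, had a median of 169 and was highest in rat 12 at 429, with a mean of 199 ± 103 (SD, n = 27) and a CV of 51.7%. Rats 34 and 24 followed the highest with 409 and 348, and rats 47 and 18 were the next lowest with 82.2 and 91.0.

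Egr2, a factor of activated neurons that also drives myelination by Schwann cells, ranged from 59.6 in rat 43 over a median of 141 to 313 in rat 12, with a mean of 156 ± 73.4 (SD, n = 27) and a CV of 46.9%. Fos, the subunit most used as a mark of active neurons, ranged from 86.6 in rat 52 over a median of 211 to 453 in rat 31, a 5.22-fold range, with a mean of 222 ± 93.7 (SD, n = 27) and a CV of 42.1%. Arc ranged from 563 in rat 18 over a median of 961 to 2481 in rat 12, with a mean of 1118 ± 454 (SD, n = 27) and a CV of 40.6%. In these 4 genes the highest rat held more than 4 times the count of the lowest. For Npas4, Egr2 and Arc the highest was rat 12, which stood apart in 18S ribosomal RNA. Their second highest values were 409, 301 and 1839.

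The other 6 genes were steadier. Egr1 ranged from 396 in rat 3 over a median of 752 to 1425 in rat 12 (mean 778 ± 244, SD, n = 27, CV 31.4%). Fosb, the gene of FosB and of the stable truncated form that builds up under repeated stimulation, ranged from 121 over a median of 166 to 288 (CV 28.8%). Egr4 ranged from 295 over 436 to 776 (CV 27.2%), and Dusp1 from 345 over 573 to 975 (CV 26.8%).

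Junb ranged from 674 over a median of 1047 to 1651 (CV 25.7%), and Nr4a1 from 654 over 905 to 1517 (CV 23.3%). Nr4a1 was thus the steadiest of the 10, with a highest value 2.32 times its lowest, where the same ratio was 5.61 for Npas4. The order of the CVs was not tested, and neighbours such as Egr4 and Dusp1 differed by less than 1 percentage point.

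**Figure D1:**
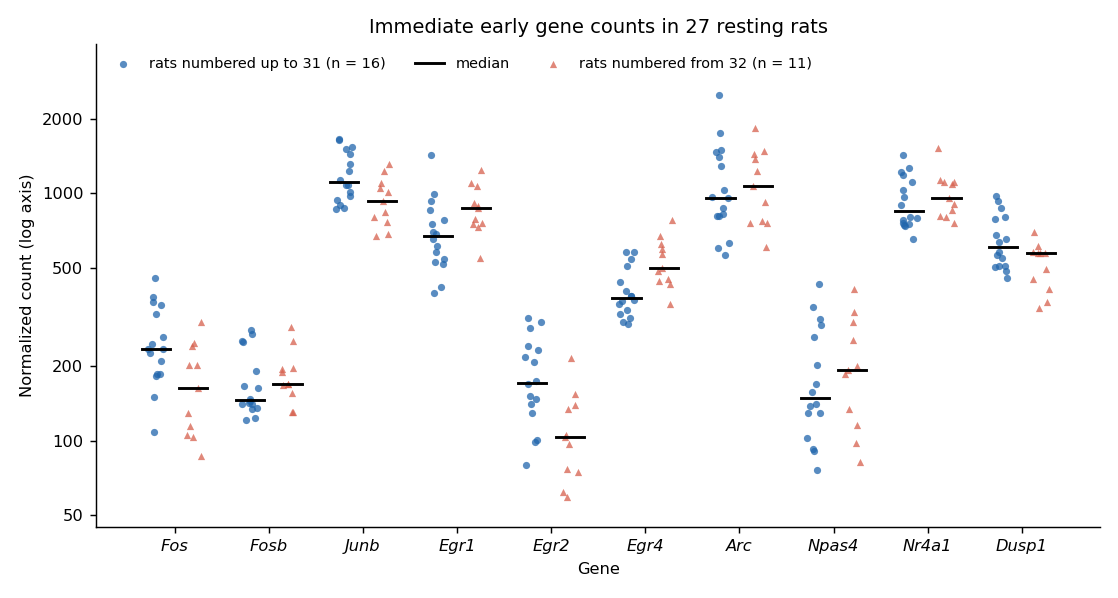
Normalized counts of the 10 genes (vertical log axis), 1 point per rat, for the 16 rats numbered up to 31 (circles) and the 11 numbered from 32 (triangles), with black bars at the medians of each set. The sets overlap for every gene, and of the 3 that passed the test between them Egr2 and Junb are lower and Egr4 is higher in the rats from 32.

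High and low values fell on the same rats for many of the genes, though not for all. Rats 12 and 31 were each among the 3 highest for 7 of the 10 genes and rat 51 for 5, while rat 26 was among the 5 highest for 9. Rats 47 and 32 were among the 5 lowest for 7 and 5 genes. Rat 3 went both ways. It was the second highest for Junb at 1641 and for Egr2 at 301, and the lowest of all for Egr1, Npas4 and Fosb at 396, 76.5 and 121.

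**Figure D2:**
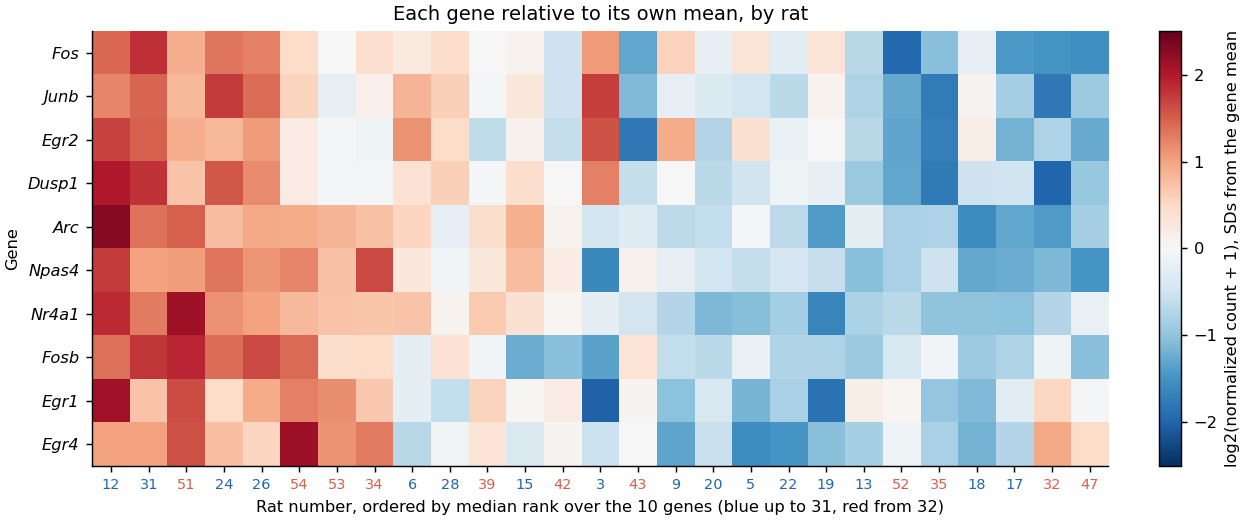
Each of the 10 genes in each of the 27 rats as log2(normalized count + 1) in SDs from the mean of that gene, with rats ordered from left to right by their median rank. Rats 12, 31, 51, 24 and 26 at the left are above the mean for all 10 genes, and rat 3 is high in the upper 4 rows (Fos, Junb, Egr2 and Dusp1) and low in Npas4, Fosb and Egr1.

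The 10 genes were next correlated with each other over the rats, on log2(normalized count + 1). All 45 pairs had a positive Spearman's rho, with a median of 0.649 and a range from 0.124 (Egr1 with Egr2) to 0.916 (Fos with Egr2). Without rats 12 and 20 the lowest rho was 0.00615 and the median 0.623. The median gene of the 11730 had a median rho of -0.0137 with the 10. A rho was called when its permutation p, adjusted over all other genes correlated with the first gene of the pair, was under 0.05. By that rule 15 of the 45 pairs were called, and 21 by Pearson's r. The share of all genes called by r was 0.0938% with Fos, 0.102% with Junb and Dusp1, 0.0512% with Fosb, 12.2% with Egr1, 0.98% with Egr2, 0.87% with Egr4, 0.0682% with Arc, 0.0341% with Npas4 and 0.0767% with Nr4a1. The share called by rho was 0.0597% with Fos, Junb and Dusp1, 0.0426% with Arc and Nr4a1, 0.0341% with Npas4, 0% with Fosb, 1.14% with Egr1, 0.776% with Egr2 and 0.682% with Egr4. With 100000 permutations no p can go below 1e-05, which also limits the adjusted values. The call also depends on which gene of a pair the p is adjusted against. With both orders 13 pairs were called, and with at least 1 of them 17. At an unadjusted permutation p under 0.05 there were 37 pairs. For Fosb, with which no gene was called, 1452 genes and 8 of the 9 members had an unadjusted p under 0.05, the lowest being 4.0e-05 with Npas4 (rho 0.731). Adjusted against the partner, Fosb was called with Egr1 (adjusted p 0.0263) and with Egr4 (0.0484).

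Over all rats Fos, Junb, Egr2 and Dusp1 formed the tightest set. Fos had a rho of 0.916 with Egr2 (r = 0.912), 0.913 with Junb (r = 0.908) and 0.886 with Dusp1 (r = 0.891), each with a permutation p of 1e-05, the smallest that can be given, and adjusted p-values of 0.0195 for rho and 0.0147 for r. These 3 were the first 3 of all genes in rank of rho with Fos. With the 2 rats farthest from the Fos median left out, r was 0.904, 0.902 and 0.870. Junb with Dusp1, a factor and a phosphatase, had a rho of 0.915 and an r of 0.940, and all 6 pairs of the 4 genes also held a rho of at least 0.782 within each depth block. In the rats from 32 their highest rho was 0.909 (Junb with Dusp1). Junb with Nr4a1 (0.964) and Fos with Arc (0.945), which are not pairs of this set, were higher there.

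Egr1 and Egr4 formed a second set. Their rho was 0.876 and their r 0.835 (permutation p of 1e-05 for both, adjusted p 0.0195 and 0.00404), and Egr4 was the gene most correlated with Egr1 of all 11729. Their rho was 0.715 in the rats up to 31 and 0.873 in those from 32, and r was 0.889 with the 2 rats farthest from the Egr1 median left out. Over all rats, and so across blocks whose means moved in opposite directions for Egr2 and Egr4, both had low values with the first set: Egr1 had a rho of 0.250 with Fos (p = 0.210, adjusted 0.664), 0.247 with Junb, 0.124 with Egr2 (p = 0.539) and 0.346 with Dusp1, and Egr4 had 0.311, 0.347, 0.156 and 0.387 with the same genes. Within the blocks these values were higher: those of Egr4 ran from 0.521 to 0.759 in the rats up to 31 and from 0.582 to 0.873 in those from 32, and those of Egr1 from 0.241 to 0.432 and from 0.745 to 0.909. The lowest rho of all 45 pairs over all rats thus fell within the zinc finger family, between the 2 genes that each held a CArG box at -83 and a CRE core at -66.

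Arc, Npas4 and Nr4a1 were related to each other. Arc had a rho of 0.868 with Npas4 (r = 0.881) and of 0.858 with Nr4a1 (r = 0.916), its 2 most correlated genes of all, with a permutation p of 1e-05 and an adjusted p of 0.0391 for each rho. Within the blocks these were 0.791 and 0.927 for Npas4 and 0.835 and 0.909 for Nr4a1, and with the 2 rats farthest from the Arc median left out r was 0.860 and 0.893. Without rats 12 and 20 the rho of Arc was 0.857 with Npas4 and 0.861 with Nr4a1 and that of Npas4 with Nr4a1 0.787, and these 3 pairs (adjusted p 0.0586 for each) and Arc with Dusp1 (0.738, adjusted p 0.211) lost their calls, leaving 11 called. The share of all genes called in that setting was 0% with Arc, Npas4, Nr4a1 and Fosb, 0.128% with Fos, 0.0682% with Junb, 0.0512% with Dusp1, 0.733% with Egr1, 1.94% with Egr4 and 5.09% with Egr2. The lowest rho of Arc with a member over all rats was 0.583, with Egr2, and all 9 other members were among the 20 genes most correlated with Arc. With Egr1 all 3 were called (rho 0.725 for Arc, 0.717 for Npas4 and 0.801 for Nr4a1, adjusted p 0.0195, 0.0235 and 0.0195), and Nr4a1 also with Egr4 (0.818, adjusted p 0.0261). Of the first set only Dusp1 with Arc was called over all rats (0.765, adjusted p 0.0469). The rho of Fos was 0.690 with Arc (adjusted p 0.0726), 0.627 with Npas4 (0.162) and 0.591 with Nr4a1 (0.232), and that of Nr4a1 with Dusp1 was 0.736 (0.0782). With the mean of each depth block removed, these pairs were called (rho 0.779, 0.766, 0.756 and 0.891, adjusted p 0.0168, 0.0261, 0.0261 and 0.0195). So were Junb with Arc (0.739, 0.0469) and with Nr4a1 (0.85, 0.0147), and Egr2 with Nr4a1 (0.801, 0.0293). In that setting 0.0938% of all genes were called with Fos and with Nr4a1, 0.0853% with Junb and 0.0426% with Egr2. Fosb lay between, with its highest rho at 0.731 (Npas4) and its lowest at 0.319 (Egr2).

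**Figure D3:**
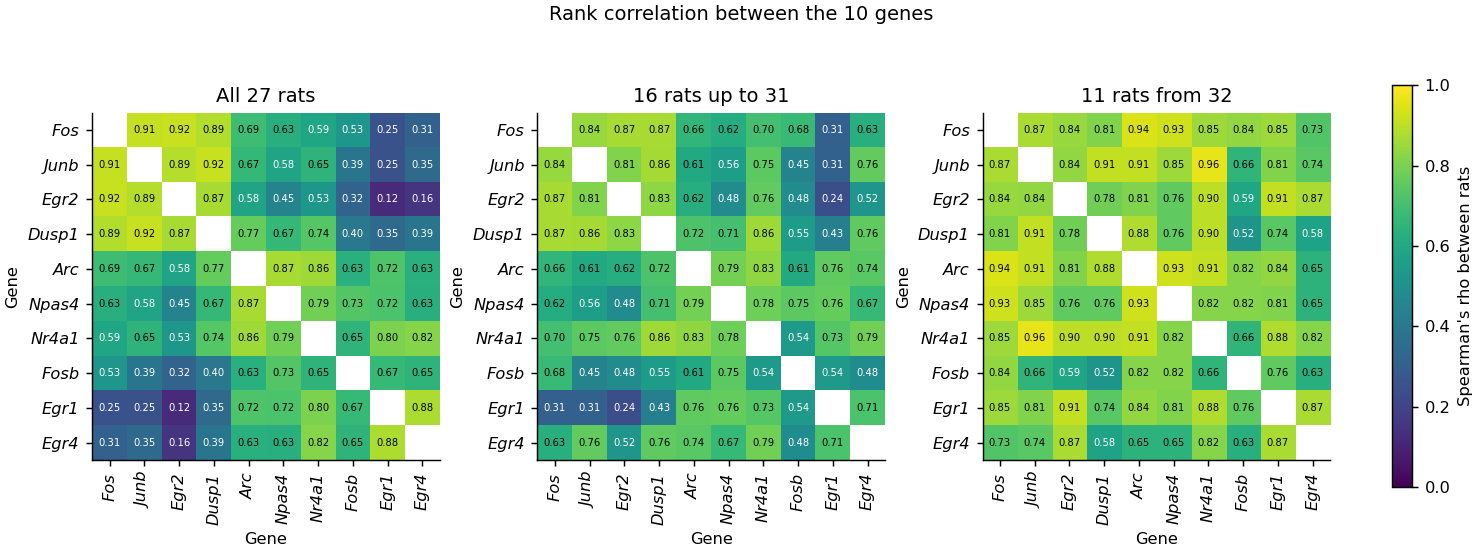
Spearman's rho between each 2 of the 10 genes over all 27 rats, the 16 rats numbered up to 31 and the 11 numbered from 32. Over all rats the upper left square (Fos, Junb, Egr2, Dusp1) is at 0.868 or higher and its relation to Egr1 and Egr4 at 0.387 or lower, while in the rats from 32 every pair is at 0.518 or higher.

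A principal component analysis of the 10 standardized log values described the same 2 directions. The first component held 67.1% of the variance and loaded on every gene with the same sign, from 0.26 (Egr1 and Egr4) to 0.36 (Arc and Nr4a1). The second held 20.9% and set Egr1 (0.46), Egr4 (0.41) and Fosb (0.21) against Egr2 (-0.42), Fos (-0.35), Junb (-0.35) and Dusp1 (-0.30). Within the blocks the second component was smaller, at 13.6% in the rats up to 31 and 7.86% in those from 32.

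The relations between the sets differed in size between the depth blocks. In the rats up to 31 the median rho over the 45 pairs was 0.706, and Egr1 stayed weakly related to Fos (0.306) and Egr2 (0.241), while Egr4 had a rho of 0.632 with Fos and 0.759 with Junb. In the rats from 32 the median was 0.818, the lowest pair was Fosb with Dusp1 at 0.518, and Egr1 had a rho of 0.855 with Fos (p = 0.00122) and 0.909 with Egr2 (p = 2.0e-04). The rho was higher in the rats from 32 for 37 of the 45 pairs, a difference that was not tested. With the mean of each block removed from each gene, the median rho over all rats was 0.742, the lowest was 0.475, and 22 pairs were called, with between 0% (Fosb) and 0.102% (Egr1) of all genes called with a member. Within a block alone no pair was called after adjustment, and 37 pairs in the rats up to 31 and 42 in those from 32 had an unadjusted permutation p under 0.05.

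**Figure D4:**
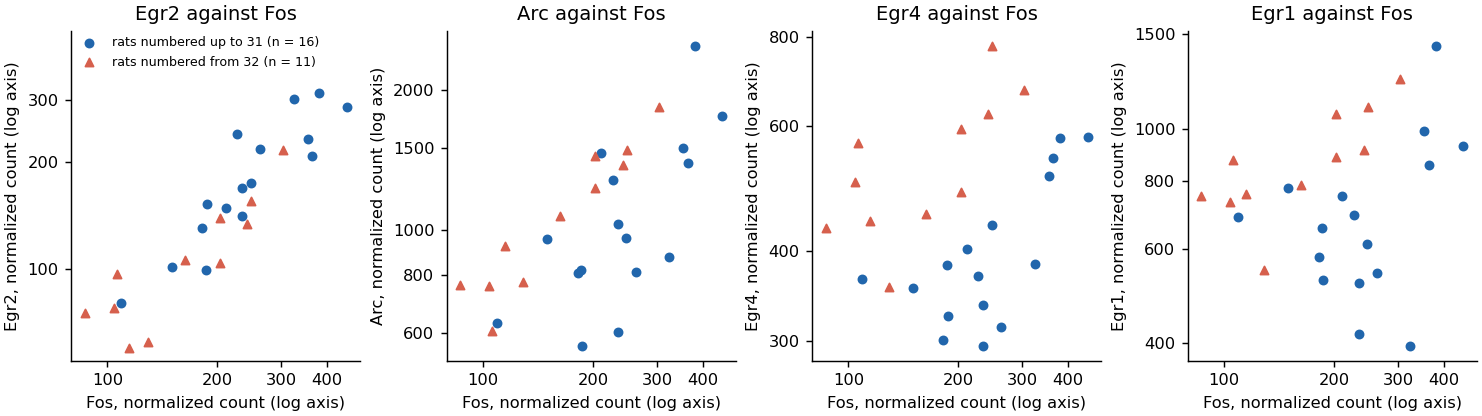
Normalized counts of Egr2, Arc, Egr4 and Egr1 against that of Fos (log axes), 1 point per rat, with circles for the 16 rats up to 31 and triangles for the 11 from 32. Egr2 rises with Fos in both sets, Arc does so too with many triangles above the circles at the same Fos level, and most triangles also lie above the circles for Egr4 and Egr1.

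Which genes of the whole transcriptome changed with Fos was asked with edgeR's quasi-likelihood test, using log2(normalized Fos count + 1) in SD units as the covariate. It called 66 of 11920 genes at an adjusted p under 0.05, 65 rising (0.545% of genes tested) and 1 falling. Leaving out 1 rat at a time gave between 14 genes (without rat 26) and 320 (without rat 12). Of the 9 other members 6 rose, and 3 of them headed the list of all genes. Egr2 rose by 0.63 ± 0.05 (SE) on the log2 scale per SD of Fos (adjusted p = 1.3e-08), Junb by 0.33 ± 0.03 (1.3e-08) and Dusp1 by 0.33 ± 0.03 (8.9e-08).

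Arc rose by 0.40 ± 0.07 (adjusted p = 0.00584), Npas4 by 0.50 ± 0.10 (0.0206) and Nr4a1 by 0.21 ± 0.05 (0.0339) per SD of Fos. Leaving out 1 rat at a time ended the call of Npas4 without rat 17, 24, 26, 32 or 47 (adjusted p up to 0.0593) and that of Nr4a1 without rat 13, 17, 24, 26, 31, 32, 35, 43 or 52 (up to 0.0908). With the 2 rats farthest from the Fos median left out, both calls were lost as well (0.0713 and 0.117), with 0.11% of genes rising. Fosb (0.23 ± 0.06, adjusted p = 0.0503), Egr1 (0.12 ± 0.08, 0.510) and Egr4 (0.11 ± 0.07, 0.522) did not pass, although Fosb did without rat 3, 12, 18, 34, 51 or 54 (down to 0.0355). With the depth block as a second term 14 genes were called, all rising (0.117% of genes tested), and 8 of the 9 members were among them. Fosb then rose by 0.32 ± 0.05 (adjusted p = 0.00250) and Egr4 by 0.25 ± 0.05 (0.0153), and Egr1 was not called at 0.24 ± 0.07 (0.799). In the rats up to 31 alone 6 genes rose (0.0503% of genes tested), among them Egr2, Dusp1 and Junb, and in those from 32 alone 6 (0.0499%), among them Egr2, Junb, Arc, Npas4 and Nr4a1. DESeq2's Wald test called 7 of the 9 members, Fosb being added, and 1.93% of genes as rising.

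The same test on Arc, the synaptic effector, called 10 of 11963 genes, all rising (0.0836% of genes tested), and 6 of the 10 were members. Nr4a1 led with 0.30 ± 0.02 per SD of Arc (adjusted p = 5.7e-09), followed by Npas4 with 0.66 ± 0.06 (1.2e-07). Egr1 rose by 0.32 ± 0.05 (0.00183), Fosb by 0.29 ± 0.05 (0.00394), Dusp1 by 0.27 ± 0.05 (0.00447) and Fos by 0.41 ± 0.08 (0.0450).

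Fos was close to the threshold, and its call was lost in 21 of the 27 fits that left out 1 rat (adjusted p up to 0.243), all but those without rat 3, 9, 15, 18, 19 or 53. The call of Dusp1 was lost without rat 12 (0.105). With the 2 rats farthest from the Arc median left out, Npas4 (0.61 ± 0.07) and Nr4a1 (0.24 ± 0.03) kept their calls, with 0.0252% of genes rising, and Egr1 (0.24 ± 0.06, adjusted p = 0.198), Fosb (0.24 ± 0.05, 0.179), Dusp1 (0.23 ± 0.05, 0.179) and Fos (0.37 ± 0.09, 0.320) lost theirs. Junb (0.23 ± 0.05, adjusted p = 0.168), Egr2 (0.37 ± 0.10, 0.426) and Egr4 (0.24 ± 0.05, 0.141) did not pass, although Junb did without rat 3 (0.0105) and Egr4 without rat 32 (0.00671). With the block as a second term all 9 other members rose with Arc, among 13 genes called (0.108% of genes tested). Their slopes were then 0.24 ± 0.04 for Junb (adjusted p = 0.00341), 0.39 ± 0.07 for Egr2 (0.0118) and 0.23 ± 0.04 for Egr4 (0.00341). In the rats up to 31 alone 5 genes rose (0.0419% of genes tested), among them Egr1, Npas4 and Nr4a1, and in those from 32 alone 7 (0.0578%), among them Fos, Junb, Npas4, Nr4a1 and Dusp1. DESeq2 called 8 of the 9 members, all but Egr2, with 0.109% of genes rising. Without rats 12 and 20, edgeR called 3 members with Arc (Fosb, Npas4 and Nr4a1), with 0.0505% of genes rising, so that Egr1 (adjusted p = 0.0654), Dusp1 (0.153) and Fos (0.293) lost their calls. With Fos 7 were then called, Fosb being added (0.22 ± 0.06, adjusted p = 0.0481), with 2.22% of genes rising.

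**Figure D5:**
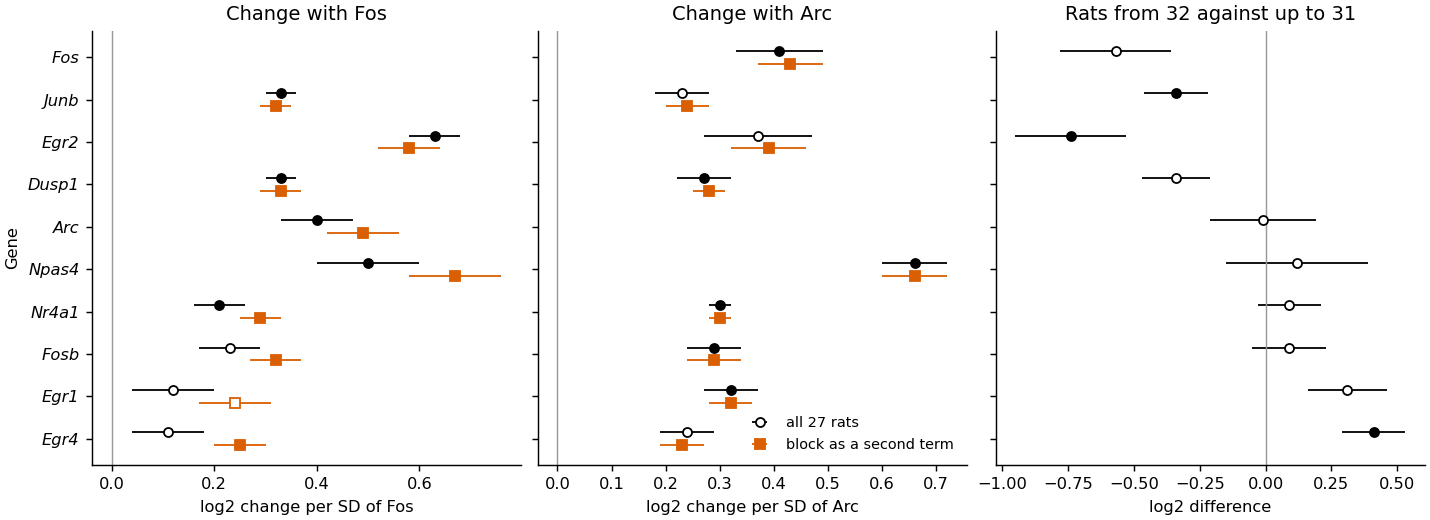
Change of each gene on the log2 scale (horizontal axis, with SE) per SD of Fos, per SD of Arc, and in the 11 rats from 32 against the 16 up to 31. Circles are the fits on all 27 rats, squares those with the block as a second term, and filled symbols passed an adjusted p of 0.05 over all genes, so that all 9 squares under Arc and 8 of 9 under Fos are filled.

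Other genes of the same response were taken from 5 lists. Of 20 other rapidly induced transcription factors, 4 rose with Fos and none fell (median log2 change per SD 0.10, against 0.00 over all genes tested, of which 0.545% rose). Ier2, an early response factor, rose by 0.33 ± 0.04 (adjusted p = 2.5e-05), Maff, a small Maf factor, by 0.88 ± 0.17 (0.0138), Jun, a partner of Fos in AP-1, by 0.10 ± 0.02 (0.0339) and Cebpb, a factor of inflammatory and metabolic responses, by 0.56 ± 0.13 (0.0378). Jund, the most highly counted of the list, had a log2 change of 0.00 ± 0.03. With Arc none of the 20 passed in edgeR or DESeq2, and 7 had an unadjusted p under 0.05.

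Of 17 feedback regulators, genes that damp the signal or the transcripts, 4 rose with Fos and none fell (median 0.12). Btg2, which promotes mRNA decay and slows the cell cycle, rose by 0.30 ± 0.04 (adjusted p = 9.4e-06), Gadd45g, a stress sensor, by 0.33 ± 0.04 (2.2e-05), Zfp36, which destabilizes short-lived mRNAs, by 0.37 ± 0.08 (0.0310) and Dusp5, a phosphatase of ERK, by 0.27 ± 0.06 (0.0396). Spry2, the most highly counted, had a log2 change of 0.04 ± 0.02. With Arc, where 0.0836% of all genes rose, 3 of the 17 did so, namely Trib1 by 0.32 ± 0.04 (1.9e-04), Btg2 by 0.27 ± 0.04 (0.00183) and Dusp6 by 0.18 ± 0.03 (0.0144).

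Few of the later effectors and none of the upstream machinery passed in edgeR. Of 18 neuronal effectors, such as secreted peptides and synaptic proteins, Inhba alone rose with Fos, by 0.62 ± 0.13 (adjusted p = 0.0220), and none passed with Arc in edgeR or DESeq2 (4 had an unadjusted p under 0.05). The most highly counted, Plk2, had log2 changes of -0.03 ± 0.02 with Fos and 0.01 ± 0.02 with Arc. None of 19 upstream signalling genes tested passed with either, and 3 with Fos and 2 with Arc had an unadjusted p under 0.05 (DESeq2 called 1 with Fos and 0 with Arc). Camk2b, a calcium-dependent kinase and the most highly counted of them, stood at -0.02 ± 0.02 with Fos and 0.01 ± 0.02 with Arc. None of 9 glucocorticoid-induced genes passed in edgeR or DESeq2, and 1 with Fos and 0 with Arc had an unadjusted p under 0.05 (Tsc22d3 at 0.06 ± 0.04 and -0.04 ± 0.04). Of the 9 list genes that rose with Fos, Btg2, Ier2 and Gadd45g also passed with the block as a second term, where 0.117% of all genes rose. Maff (0.45 ± 0.12, adjusted p = 0.549), Cebpb (0.27 ± 0.12, 0.866), Inhba (0.39 ± 0.12, 0.799), Jun, Zfp36 and Dusp5 did not.

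Outside the 10, the gene whose rank over the rats was most like theirs was Btg2, with a median rho of 0.705 over the 10 and a range from 0.474 (Egr1) to 0.842 (Dusp1). Ccn1, a secreted matrix protein and itself an immediate early gene, followed with 0.633 and its highest value with Npas4 (0.867). Trib1, a pseudokinase, had 0.598 and Ier2 0.575. The others of the first 10 were Apold1 (0.571), Eif4g3 (0.569), Gadd45g (0.549), Cd164l2 (0.543), Pafah2 (0.526) and Mtmr1 (0.526). In the rats from 32 the median rho of Eif4g3 was 0.236 and that of Mtmr1 0.368, where those of Btg2 and Ccn1 were 0.791 and 0.795.

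The levels themselves differed between the depth blocks for some members and not for others. Egr2 had a mean of 187 ± 73.2 (SD, n = 16) in the rats up to 31 and of 111 ± 47 (SD, n = 11) in those from 32, a log2 difference of -0.74 ± 0.21 (SE, edgeR adjusted p = 0.0153). Junb differed in the same direction, 1197 ± 281 against 943 ± 213 (-0.34 ± 0.12, adjusted p = 0.0481, but 0.0610 without rats 12 and 20 and 0.0587 with no filter on low counts), and Egr4 in the opposite one, 405 ± 96.3 against 536 ± 123 (0.41 ± 0.12, 0.0163). The ranges of the blocks overlapped for all 3. The background is large, since 18% of 11716 genes passed in this comparison, and 3 of 10 members is to be read against that.

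Fos (257 ± 93.8 against 173 ± 71.4) and Dusp1 (654 ± 168 against 516 ± 111) missed the threshold at adjusted p-values of 0.0517 and 0.0572, and Egr1 (709 ± 256 against 878 ± 196) did not pass at 0.162. Without rats 12 and 20 the log2 difference of Egr1 was 0.40 ± 0.13 and passed (adjusted p = 0.0394), so that Egr1, Egr2 and Egr4 were then the 3 called, with 16.1% of all genes. With DESeq2, or with the meningeal fibroblast score as a second term, 5 members were called, among 20.2% and 18.7% of all genes, and with no filter on low counts 2, among 13.3%. Arc was level, at 1121 ± 506 against 1115 ± 390 (-0.01 ± 0.20, 0.985). Depth, library numbering and whatever else parted the blocks cannot be told apart.

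The total count of a library was called with 3 members. Egr2 had a rho of -0.737 with it (permutation p = 4.0e-05, adjusted over all genes 0.00119) and an r of -0.699 (adjusted 0.00134), Fos a rho of -0.617 (adjusted 0.00881) and an r of -0.585 (0.0141), and Junb a rho of -0.612 (0.00955) and an r of -0.595 (0.0116). With the 2 rats of the most extreme totals left out, r was -0.642, -0.596 and -0.559. Not called were Dusp1 with a rho of -0.473 (adjusted 0.0697) and, with the opposite sign, Egr1 with 0.409 (0.134) and Egr4 with 0.418 (0.122). Fosb, Arc, Npas4 and Nr4a1 lay between -0.0842 and 0.0549. Of all genes, 16.5% were called by rho and 17.7% by r. Within the blocks the rho was -0.668 and -0.436 for Egr2, -0.535 and -0.536 for Fos, and -0.535 and -0.382 for Junb (16 and 11 rats), and with the block means removed none of the 10 was called, nor any other gene (0%).

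By rho no member was called with any of 11 cell type and stress marker lists or with 18S ribosomal RNA, and 7 of these 120 relations had an unadjusted permutation p under 0.05. The share of all genes called was 0.828% for astrocyte, 1.02% for oligodendrocyte, 0.324% for oligodendrocyte precursor, 0.427% for microglia and macrophage, 1.95% for meningeal fibroblast and 0.503% for hypoxia and dissection stress markers, 0.392% for 18S ribosomal RNA, and 0% for interneuron, endothelial and mural, blood and striatal projection neuron markers. For excitatory neuron markers, with which 12.2% of all genes were called, the rho of the members ran from -0.466 (Egr2, p = 0.0149, adjusted 0.0857) to 0.451 (Egr1, p = 0.0190, adjusted 0.0988). By Pearson's r, with which 33.6% of all genes were called, both passed: Egr1 had an r of 0.596 (adjusted 0.00511), which was 0.308 with the 2 rats at the extremes of the list left out, and Egr2 an r of -0.451 (adjusted 0.0462), which was -0.416 without them. Within the blocks the rho of Egr1 was 0.756 in the rats up to 31 and -0.245 in those from 32, and that of Egr2 -0.221 and -0.455. For the 8 meningeal fibroblast markers, whose summed level ran from 1017 to 16274, the rho of all 10 members was below 0, between -0.355 (Arc) and -0.116, as it was for the endothelial and mural markers (-0.291 to -0.0556). In the list of dissection stress and hypoxia genes the rho of the members lay between -0.287 and 0.237. The rows of Hspa1a and Hspb1 were at 0 in all libraries, as were those of Sst, Mef2c and Hba-a2. A row at 0 throughout cannot tell an absent transcript from reads that were not counted, so no level is read from it. What part these measures have in the levels of the 10 genes was not tested.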

How the data were processed

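Raw counts of reads per gene, deposited by the authors without normalization, were used for all 27 libraries. Per the labels the submitters' tools were Trimmomatic, STAR and HTSeq, and the genome build, annotation and strandedness are not given in the sources used here, so reads of overlapping or antisense genes may be split either way. Gene IDs were named from RefSeq (GRCr8), which matched 27825 of 36865 rows and 99.5% of counts. The 10 genes, the lists and the tests were chosen with earlier results of these data known. Counts were divided by DESeq2 size factors (version 1.42.0), and log values are log2(normalized count + 1). Genes entered correlations if their mean count reached 10 (Spearman's rho and Pearson's r, two-sided, 100000 permutations, Benjamini-Hochberg adjustment over all genes). Covariate and block models used edgeR 4.0.16 (filterByExpr, TMM, quasi-likelihood test, adjusted over all genes tested) and were tested on simulated data. With 1 group, the p-values of slopes, block differences and correlations are set against the spread between rats and do not measure it. That of the dispersion test is set against Poisson counting. Counting noise covers counting error only, since reads without molecular identifiers are not independent molecules. At these depths (4907255 to 12771309 counts) 3 counts are at most 6.11e-05% of a library.

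Named genes are the 10 members, in each list up to 4 genes with the lowest adjusted p under 0.05 in the Fos model and the one with the highest mean count, the 10 other genes with the highest median rho with the members, and markers beside a result they move with. Genes called with Arc and the genes named in the closing section were chosen after their values were seen. Promoters are shown for 5 of the 8 matched members, chosen for the results they belong to. Alternatives were DESeq2's Wald test, other scalings and filters, the block term, single blocks, rats left out and the meningeal fibroblast score as a term.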

Additional observations from a re-analysis of the deposited data

How the results depend on the processing

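All alternatives kept the direction of every member's change with Fos and with Arc. The number of genes called with Fos depended most on the setting: it was 66, and became 249 with DESeq2's Wald test (7 of the 9 members), 14 with the block as a second term, 13 with the 2 rats farthest from the Fos median left out (4 members), 283 without rats 12 and 20, and 6 in the rats up to 31 (3 members) and 6 in those from 32. Leaving out 1 rat at a time gave between 14 and 320 genes, with the lowest counts without rats 26, 32 and 43 (14, 16 and 16) and the highest without rats 12 and 51 (320 and 258), and between 4 and 7 members. The number called with Arc was 10, and became 3 with the 2 rats farthest from the Arc median left out (2 members), 6 without rats 12 and 20 (3 members) and 5 in the rats up to 31 (3 members). Leaving out 1 rat gave between 7 and 11 genes and between 4 and 7 members, the fewest without rat 12, when Dusp1 no longer passed (adjusted p = 0.105). Between the blocks 3 members were called, and 5 with DESeq2 (20.2% of all genes called) or with the meningeal fibroblast score as a second term (18.7%), Fos and Dusp1 being added. Without rats 12 and 20 there were again 3, but Junb was lost (adjusted p = 0.0610) and Egr1 added (0.0394), and with no filter on low counts Junb was lost (0.0587). The log2 difference of Arc, -0.01, became 0.09 without rats 12 and 20 (adjusted p = 0.801), so it had no direction. Of the 45 pairs 15 were called, 11 without rats 12 and 20, and 0 within either block alone. Of members called with a library measure, 3 became 0 with block means removed. The causes of these changes were not tested. The models with 1 block, with the meningeal score or leaving out each rat in turn were added after seeing the data. No paired analysis was possible because there is 1 group.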

Other observations

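The genes called with Fos and those called with Arc shared 5, namely Btg2, Ccn1, Dusp1, Npas4 and Nr4a1, which are 5 of the 66 and 5 of the 10. With the block as a second term, 14 genes were called with Fos and 13 with Arc. Junb, Egr2, Egr4 and Fosb were then shared as well. Ccn1, with a mean normalized count of 36.3 ± 32 (SD, n = 27) and a range from 7.67 to 124, rose by 0.87 ± 0.13 per SD of Fos (adjusted p = 5.2e-04) and by 0.94 ± 0.11 per SD of Arc (1.4e-05). It passed with the block as a second term as well, at 1.06 ± 0.13 with Fos and 0.94 ± 0.11 with Arc.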
